A study of Mus musculus with 384 samples.

Results

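The 10 genes described here encode heat shock proteins and chaperones: Hspa8, Hspa1a, Hspa1b and Hspa5 of the HSP70 family, Hsph1 of the HSP110 family, Hsp90ab1 and Hsp90aa1 of the HSP90 family, the J-domain proteins Dnaja1 and Dnajb1, and the mitochondrial co-chaperonin Hspe1. They were chosen by name, with earlier results of these data known, from the 50556 gene symbols of the count matrix. All 10 symbols were in it. The data are read counts from plate-based single-cell RNA-seq of regulatory T (Treg) cells sorted from mouse ear skin. Mice received 5% imiquimod, an agonist of Toll-like receptor 7 that inflames the skin, or vehicle on the ears 3 times, and cells were sorted on day 3. The design text names 2 mice per treatment and does not say which plate held which mouse, and the labels used here state no strain, age or sorting marker. The single-cell wells comprised 174 imiquimod and 174 vehicle wells, and 16 ten-cell wells and 20 empty wells carried no treatment label.

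Wells were taken as 4 plates from blocks of 96 library numbers, 2 plates per treatment, and the plate was the replicate. A cell was kept where it had at least 500 detected genes and 10000 counts. That left 38 and 44 cells on imiquimod plates and 62 and 58 cells on vehicle plates, 202 in all, with 47481 to 5946386 counts each. Median gene numbers per kept cell were 975 and 1093 on imiquimod plates and 1040 and 1503 on vehicle plates. Foxp3, the lineage factor of Treg cells, was detected in 37.1% of kept cells and Ikzf2 in 59.4%, and Foxp3 was detected in 16 of 16 ten-cell wells. Of 20 wells labelled empty, 5 held any count of a member, between 1 and 18411 counts. A well among these, on vehicle plate 2, had 885 genes and 1527760 counts, past the limits set for a kept cell. The limits thus do not fully separate wells with a cell from wells labelled empty. Summed erythroid marker levels were 654 and 334 CPM (counts per 1000000 counts) on imiquimod plates and 655 and 24.4 CPM on vehicle plates, and a marker of that list was detected on average in 27.0% and 21.6% of imiquimod cells and in 2.02% and 9.05% of vehicle cells. The 2 mitochondrial ribosomal RNA genes, the mitochondrially encoded genes analysed here, took 0.140% and 0.0743% of counts on imiquimod plates and 0.296% and 0.175% on vehicle plates, with no overlap. Mast cell markers summed to 4.50 and 6.42 CPM on imiquimod plates and 273 and 116 CPM on vehicle plates, with Mcpt4 and Ms4a2 at 0 on all 4. Keratinocyte markers reached 337 CPM on imiquimod plate 2 and at most 5.42 CPM on the other plates, and macrophage and dendritic, neutrophil, fibroblast and B cell markers summed to at most 351 CPM on any plate, with C1qa, which encodes a complement subunit of macrophages, at 0 on all 4. The part of these differences in the results below was not tested.

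HSP70 proteins bind unfolded stretches of client proteins and release them in a cycle driven by ATP. J-domain proteins deliver clients and start ATP hydrolysis, HSP110 proteins exchange the nucleotide, and HSP90 proteins act late on kinases, steroid receptors and other clients. Some of these genes are transcribed in unstressed cells at all times, among them Hspa8 and Hsp90ab1. Others, among them Hspa1a, Hspa1b, Dnajb1 and Hsph1, are strongly induced by heat shock factor 1 when proteins misfold, and dissociating tissue with enzymes at a warm temperature is known to induce them together with immediate early genes. Hspa5 answers to the unfolded protein response of the endoplasmic reticulum.

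Which reads can be assigned to a member depends on how much of its sequence recurs elsewhere in the genome. In the GENCODE M21 transcripts, 74.8% of the 50-base windows of the Hspa8 transcript also occurred in another gene, against 58.5% for Hsp90aa1, 28.8% for Dnaja1, 4.49% for Hsp90ab1 and 0% for Hspa5 and Hsph1. The main copies of Hspa8 are the processed pseudogenes Gm15459 and Gm8355, intronless inserts of its 1941-base coding sequence that differ from it at 5 and 25 positions. The 100-base coding stretch with the most differences summed over both copies within an exon is shown. Reads across exon junctions or outside the coding sequence are not covered. The stretch marks how few bases tell gene and copies apart within an exon. It lies on GRCm38 at chr9:40801955-40802054 (plus strand, 1 coding exon of Hspa8), chr5:5783424-5783523 (minus strand, within Gm15459) and chr10:14747171-14747270 (minus strand, within Gm8355). Capitals mark bases that differ from Hspa8, and counted from 1 at the first base shown the substitutions, with the base of Hspa8 first, are G82A in Gm15459 and C31T, T70C, C74T, A85G and C100T in Gm8355.
Hspa8: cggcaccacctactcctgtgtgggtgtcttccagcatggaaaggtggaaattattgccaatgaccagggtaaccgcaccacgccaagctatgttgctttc
Gm15459: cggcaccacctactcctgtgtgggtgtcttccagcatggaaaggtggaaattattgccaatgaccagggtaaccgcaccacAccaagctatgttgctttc
Gm8355: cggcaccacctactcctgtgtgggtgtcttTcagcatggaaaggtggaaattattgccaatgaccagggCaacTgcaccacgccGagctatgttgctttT

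Hspa1a and Hspa1b are a pair of adjacent genes in which 58.8% of the 50-base windows of the Hspa1a transcript also occur in Hspa1b, so the assignment of their reads to either symbol is uncertain. Their promoters are nearly identical too. In the RefSeq promoter windows of GRCm38.p6, which span 250 bases before to 50 after the transcription start, the pair differs at 4 of 300 positions (98.7% identity). Within the 250 bases before the start these are, with the base of Hspa1a first, C44T, T47C and T249G. Both are shown beside the promoters of Hspe1 and Hspa5, since they carry the motifs through which heat shock and endoplasmic reticulum stress are known to act. Promoters were in the table for 7 of the 10 members. Capitals mark GAANNTTC or TTCNNGAA, the paired units of a heat shock element, searched on both strands, and in Hspa5 the endoplasmic reticulum stress element, CCAAT and CCACG with 9 bases between them, also searched on both strands. The stretches lie at chr17:34972157-34972406 (minus strand), chr17:34959239-34959488 (minus strand), chr1:55087898-55088147 (plus strand) and chr2:34771840-34772089 (plus strand).
Hspa1a: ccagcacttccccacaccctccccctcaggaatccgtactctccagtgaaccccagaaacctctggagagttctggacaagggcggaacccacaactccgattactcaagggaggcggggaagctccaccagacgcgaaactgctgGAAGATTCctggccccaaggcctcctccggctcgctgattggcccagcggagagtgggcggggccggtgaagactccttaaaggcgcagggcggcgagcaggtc
Hspa1b: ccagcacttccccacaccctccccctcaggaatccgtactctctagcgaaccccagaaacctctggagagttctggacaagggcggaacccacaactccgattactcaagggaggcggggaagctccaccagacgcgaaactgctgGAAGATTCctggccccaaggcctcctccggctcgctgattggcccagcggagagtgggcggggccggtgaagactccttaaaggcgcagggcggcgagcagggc
Hspe1: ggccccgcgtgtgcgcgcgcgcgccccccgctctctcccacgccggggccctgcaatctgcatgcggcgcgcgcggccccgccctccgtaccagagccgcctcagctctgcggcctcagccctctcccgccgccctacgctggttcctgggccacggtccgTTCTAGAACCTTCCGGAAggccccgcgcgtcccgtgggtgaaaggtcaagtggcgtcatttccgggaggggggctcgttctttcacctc
Hspa5: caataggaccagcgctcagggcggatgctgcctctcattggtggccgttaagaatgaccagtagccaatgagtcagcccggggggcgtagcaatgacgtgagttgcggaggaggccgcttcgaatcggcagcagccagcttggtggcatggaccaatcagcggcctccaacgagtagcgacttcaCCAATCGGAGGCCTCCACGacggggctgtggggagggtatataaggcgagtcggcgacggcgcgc

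The Hspe1 window held 3 overlapping matches of the heat shock motif, each window of the Hspa1 pair held 1, and so did 1 of the 3 Dnaja1 windows. Both Hsph1 windows held 3, of which 1 lay before the start. No match was in the 2 Dnajb1 windows or in that of Hspa5. Of all 32851 promoter windows, 15.1% held at least 1 match and 1.96% at least 2. The endoplasmic reticulum stress element was found in Hspa5 and in 0.119% of all windows.

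Across the 4 plates the members spanned a wide range of levels. Per kilobase of transcript and without further scaling, the mean over plates was 620 CPM per kb for Hspa8, with plates between 502 and 697. Hsp90ab1 followed at 329 CPM per kb, between 256 and 384, and Hspa5 at 152 CPM per kb, between 45.6 and 216. The plate ranges of these 3 genes did not overlap. Dnajb1 had 65.3 CPM per kb, Dnaja1 63.4, Hsp90aa1 57.8, Hspe1 44.0 and Hsph1 29.8, and the plate ranges of neighbours in that order overlapped from Hspa5 to Hspa1b. Hspa1b was near the bottom at 0.605 CPM per kb and Hspa1a at 0.

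The levels of most members were higher on both imiquimod plates than on both vehicle plates, while the share of cells with a transcript was lower or overlapped for all of them but Hspa1b. No member passed the test between treatments. The level is the CPM of the counts summed over the kept cells of a plate, scaled by edgeR's TMM factors, and the test was edgeR's quasi-likelihood test over 14462 genes with Benjamini-Hochberg adjustment. A cell detected a gene with at least 1 count. The exact permutation test of the shares of 2 plates against 2 cannot go below p = 0.333, so no difference in a share could pass.

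**Figure D1:**
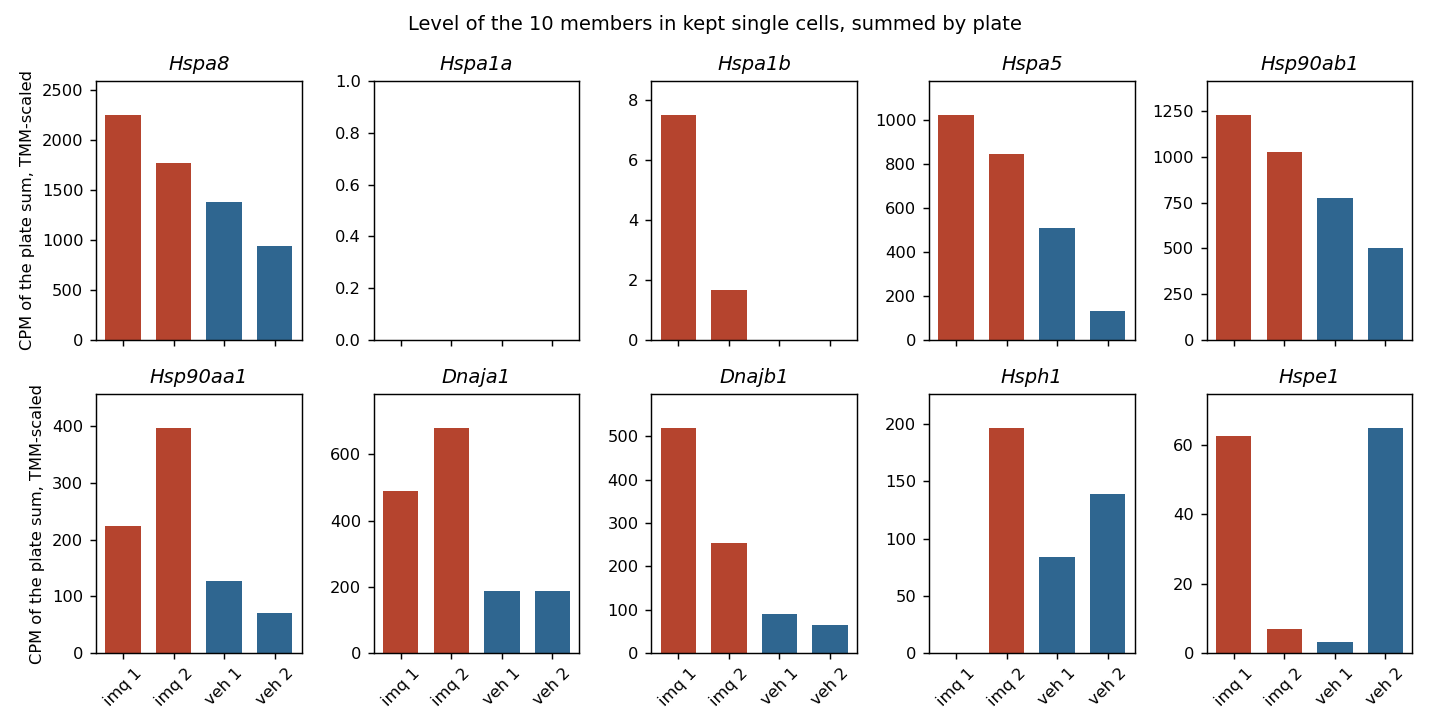
Level of each member, as TMM-scaled CPM of the counts summed over the kept cells of a plate (vertical axis from 0, 1 scale per gene), on imiquimod plates 1 and 2 (imq, red) and vehicle plates 1 and 2 (veh, blue). For 7 members both red bars stand above both blue bars, Hsph1 and Hspe1 overlap, and Hspa1a is at 0 on every plate.

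Hspa8, the constitutive cytosolic HSP70, had 2250 and 1773 CPM on imiquimod plates, against 1377 and 941 CPM on vehicle plates. Its log2 fold change was 0.80 ± 0.56 (SE, n = 2 plates each, edgeR adjusted p = 0.626). It was detected in 47.4% and 38.6% of imiquimod cells and in 50.0% and 46.6% of vehicle cells. The levels did not overlap and the shares did. Among cells that detected it, the median was 1249 and 2007 CPM on imiquimod plates and 1757 and 1321 CPM on vehicle plates, and these overlapped as well.

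The stress-inducible pair was rarely detected. Hspa1a had 0 counts in all 202 kept cells, and the floor of 3 counts allows a share of up to 1.49% of cells with a count (1.81% by the exact binomial interval). Such a limit covers cells with a count and not cells that express the gene, since wells lose transcripts and reads of the pair are hard to assign. Hspa1b was found in 3 imiquimod cells, 1 of 38 on plate 1 with 351 counts and 2 of 44 on plate 2 with 154 and 2 counts, and in 0 of 120 vehicle cells, for which the same floor allows up to 2.5% of cells with a count (3.03% by the exact interval). Summed over the group, its level in imiquimod cells was 193 times the floor of 3 counts over all vehicle cells. That ratio rests on those 3 cells and on amplified reads, so it does not bound a difference in transcripts. A well labelled empty on vehicle plate 2 held 1 Hspa1b count. Hspa1b passed the filter on low counts through the imiquimod plates alone. Its unadjusted edgeR p, 0.0227, was the smallest among members, and its edgeR adjusted p was 0.42. Hspa1l, a testis-enriched relative that shares sequence with both, had 4 counts in 4 kept cells.

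Hspa5, the HSP70 of the endoplasmic reticulum also called BiP, had 1024 and 844 CPM on imiquimod plates, against 511 and 131 CPM on vehicle plates. The log2 fold change of imiquimod over vehicle was 1.54 ± 0.94 (SE, n = 2 plates each, edgeR adjusted p = 0.544). It was detected in 15.8% and 34.1% of imiquimod cells and in 35.5% and 22.4% of vehicle cells. Where detected, its median was 1200 and 1211 CPM on imiquimod plates and 31.2 and 2.68 CPM on vehicle plates. Of 35 vehicle cells with Hspa5, 18 had it under 10 CPM, against 6 of 21 imiquimod cells. On vehicle plate 2 a single cell carried 80.7% of its counts. The log2 fold change was 0.88 without vehicle plate 2 and 2.77 without vehicle plate 1, and 2.21 without the highest cell of each plate.

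Hsph1, the HSP110 nucleotide exchange factor, had 0 and 196 CPM on imiquimod plates and 84.2 and 139 CPM on vehicle plates. The groups overlapped and the log2 fold change was -0.18 ± 2.67 (SE, n = 2 plates each, edgeR adjusted p = 0.992). It was detected in 0 of 38 and 1 of 44 imiquimod cells and in 4 of 62 and 4 of 58 vehicle cells. Its level came from very few of them: the 1 imiquimod cell had 18325 counts, and the top vehicle cell of each plate held 80.1% and 96.5% of the counts. Without imiquimod plate 2 its log2 fold change was -16.28, since the 1 imiquimod plate left was at 0. With the highest cell of each plate taken out both imiquimod plates were at 0, and the edgeR adjusted p was 0.277 (unadjusted 0.0229).

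Hsp90ab1, the constitutive cytosolic HSP90, had 1229 and 1028 CPM on imiquimod plates, against 775 and 504 CPM on vehicle plates. Its log2 fold change was 0.82 ± 0.73 (SE, n = 2 plates each, edgeR adjusted p = 0.729). Its share of cells went the other way, with 26.3% and 27.3% of imiquimod cells and 41.9% and 48.3% of vehicle cells. Neither the levels nor the shares of the 2 treatments overlapped. The median among detecting cells was 1495 and 1508 CPM on imiquimod plates and 621 and 73.8 CPM on vehicle plates.

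Hsp90aa1, the more inducible cytosolic HSP90, had 225 and 397 CPM on imiquimod plates, against 127 and 70.7 CPM on vehicle plates, with no overlap. The fitted log2 fold change was 1.65 ± 1.49 (SE, n = 2 plates each, edgeR adjusted p = 0.735). Detection overlapped, at 15.8% and 27.3% of imiquimod cells and 27.4% and 15.5% of vehicle cells. Of the vehicle cells with Hsp90aa1, 12 of 26 had it under 10 CPM, against 3 of 18 imiquimod cells. At 10 CPM or more the share was 13.2% and 22.7% of imiquimod cells and 12.9% and 10.3% of vehicle cells.

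Dnaja1, a J-domain partner of cytosolic HSP70, had 489 and 679 CPM on imiquimod plates, against 189 and 188 CPM on vehicle plates. This gave a log2 fold change of 1.63 ± 1.08 (SE, n = 2 plates each, edgeR adjusted p = 0.592). It was detected in 15.8% and 31.8% of imiquimod cells and in 40.3% and 32.8% of vehicle cells. The levels did not overlap, and the shares of imiquimod plate 2 and vehicle plate 2, at 31.8% and 32.8%, nearly did. Smu1, a splicing factor gene on the opposite strand, shares 10.0% of the 50-base windows of Dnaja1, and the library protocol does not mark strand, so reads from the shared stretch cannot be told apart.

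Dnajb1, the J-domain protein known as HSP40 and a classical target of heat shock factor 1, had 519 and 254 CPM on imiquimod plates, against 91.1 and 65.9 CPM on vehicle plates. Its log2 fold change, 2.30 ± 1.43 (SE, n = 2 plates each, edgeR adjusted p = 0.553), was the largest among members with counts on every plate. Few cells carried it: 3 of 38 and 3 of 44 imiquimod cells, and 6 of 62 and 7 of 58 vehicle cells. In those cells the median was 1449 and 2351 CPM on imiquimod plates and 353 and 285 CPM on vehicle plates. A single cell held 53.0% and 51.5% of its counts on imiquimod plates and 49.0% and 47.2% on vehicle plates.

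Hspe1, the lid of the mitochondrial HSP60 chamber, had 62.4 and 7.00 CPM on imiquimod plates and 3.15 and 64.8 CPM on vehicle plates. The groups overlapped and the log2 fold change was 0.03 ± 3.05 (SE, n = 2 plates each, edgeR adjusted p = 0.999). Only 7 kept cells detected it, 1 on each imiquimod plate and 1 and 4 on vehicle plates. Leaving out a plate moved its log2 fold change to between -2.15, without imiquimod plate 1, and 3.45, without vehicle plate 2.

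**Figure D2:**
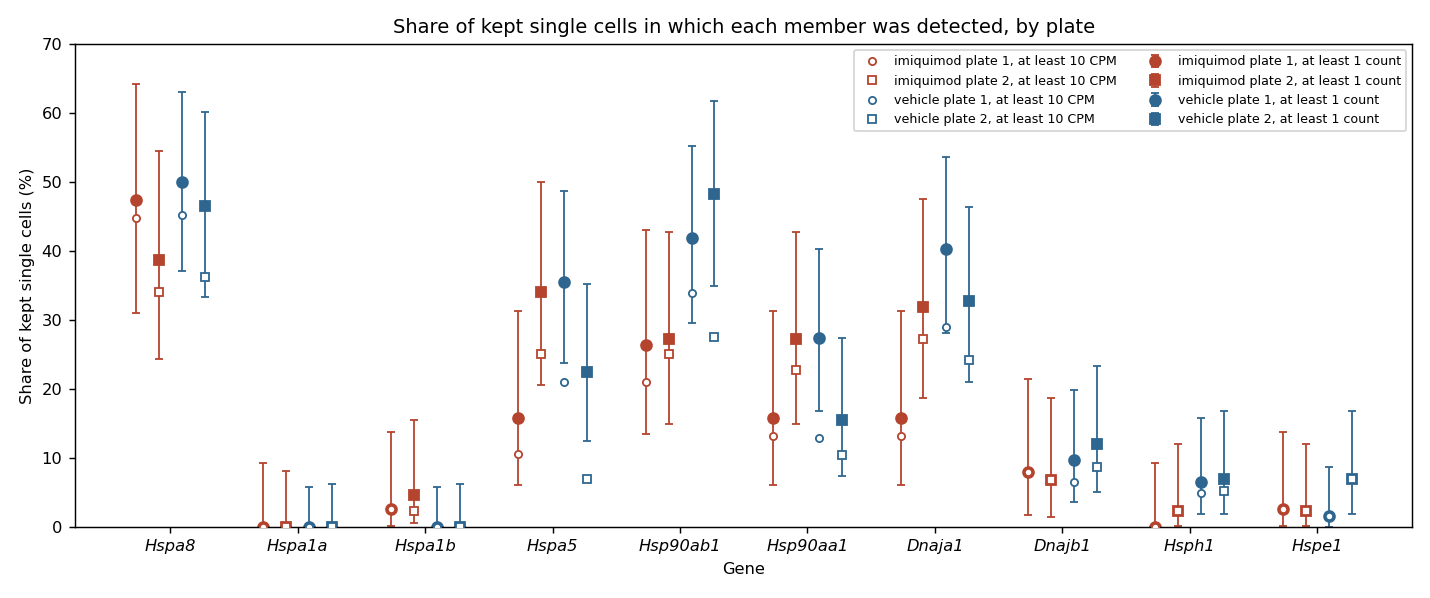
Share of kept single cells (percent, vertical axis) in which each member was detected, for imiquimod plates 1 and 2 (red) and vehicle plates 1 and 2 (blue); filled symbols are at least 1 count with exact 95% binomial intervals, which cover counting error only, and open symbols are at least 10 CPM. The filled blue symbols of Hsp90ab1 (41.9% and 48.3%) stand above the red ones (26.3% and 27.3%), and the open symbols lie closer together.

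In all, 7 of the 9 tested members had both imiquimod plates above both vehicle plates, against 13.7% of all genes tested, and no member was lower in that way, against 31.1%. The log2 fold change was above 0 for 8 of 9 members, against 46.6% of all genes, with a median of 1.54 over members and -0.26 over all genes. Hspa1b passed the filter on low counts through the imiquimod plates alone, and without it 6 of 8 members were above without overlap, 7 of 8 were above 0 and the median was 1.18. Limma on the mean log2(CPM + 1), which weighs every cell alike, had 4 of 9 members above 0, against 28.0% of all genes. Its median was -0.059 over members and -0.12 over all genes. Hspa8, Hsp90ab1, Dnaja1, Hsph1 and Hspe1 were below 0. With edgeR the number of genes called was 0 of 14462 (0% called), with 1669 at an unadjusted p under 0.05. DESeq2 called 3740 of the 14462 genes and 3 of the 9 members, Hspa1b, Dnaja1 and Dnajb1. By the same count, 6 of 8 housekeeping genes and 15 of 24 immediate early genes were above without overlap, but 3 of 8 and 7 of 24 without TMM scaling. Of the most abundant housekeeping genes, Actb, cytoplasmic actin, had 4097 and 938 CPM on imiquimod plates and 3579 and 3439 CPM on vehicle plates. The translation factor gene Eef1a1 had 4332 and 1272 CPM on imiquimod plates and 1817 and 1359 CPM on vehicle plates, and both genes overlapped. The ubiquitin gene Ubb, with 1983 and 967 CPM on imiquimod plates and 869 and 319 CPM on vehicle plates, did not. Without TMM scaling, the count of members above was again 7, against 10.2% of all genes, but the nearest plates of Hspa8 were then 1563 and 1504 CPM and those of Hsp90ab1 854 and 846 CPM.

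For detection, 4 members (Hsp90ab1, Dnaja1, Dnajb1 and Hsph1) had both imiquimod plates below both vehicle plates, against 42.5% of all genes tested, a share of members near the share of all genes. Hspa1b alone was above in that way, against 6.29%. With at least 10 CPM, 2 members (Hsp90ab1 and Hsph1) were below, against 37.6% of all genes, and 2 (Hspa1b and Hsp90aa1) were above, against 6.6%. Hspa1b was among the genes tested only through its counts on imiquimod plates, so its place above in both counts was set by the filter. The nearest plates of Hsp90aa1 were 13.2% and 12.9%, and with cells thinned to 100000 counts its shares overlapped. Of the 6 members found in at least 3 cells on every plate, 4 (Hsp90ab1, Hspa5, Dnaja1 and Dnajb1) had a higher median among detecting cells on both imiquimod plates, against 26.1% of the 3777 genes so compared. Members were seen under 10 CPM in 13.7% and 15.6% of their detections on imiquimod plates and in 27.3% and 34.2% on vehicle plates. Over all genes that portion was 55.4% and 52.4% on imiquimod plates and 50.1% and 50.3% on vehicle plates.

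Taken per cell, the members were sparse and unevenly spread. A kept cell detected 1.34 and 1.75 members on average on imiquimod plates and 2.13 and 1.91 on vehicle plates. No member was seen in 12 of 38 and 10 of 44 imiquimod cells and in 19 of 62 and 18 of 58 vehicle cells. At least 4 members were seen in 5 and 7 imiquimod cells and in 18 and 15 vehicle cells. At 10 CPM or more the means were 1.16 and 1.48 on imiquimod plates and 1.55 and 1.26 on vehicle plates, and they overlapped. Thinned to 100000 counts per cell, which left out 3 imiquimod cells and 1 vehicle cell, they were 1.23 and 1.52 on imiquimod plates and 1.74 and 1.34 on vehicle plates.

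**Figure D3:**
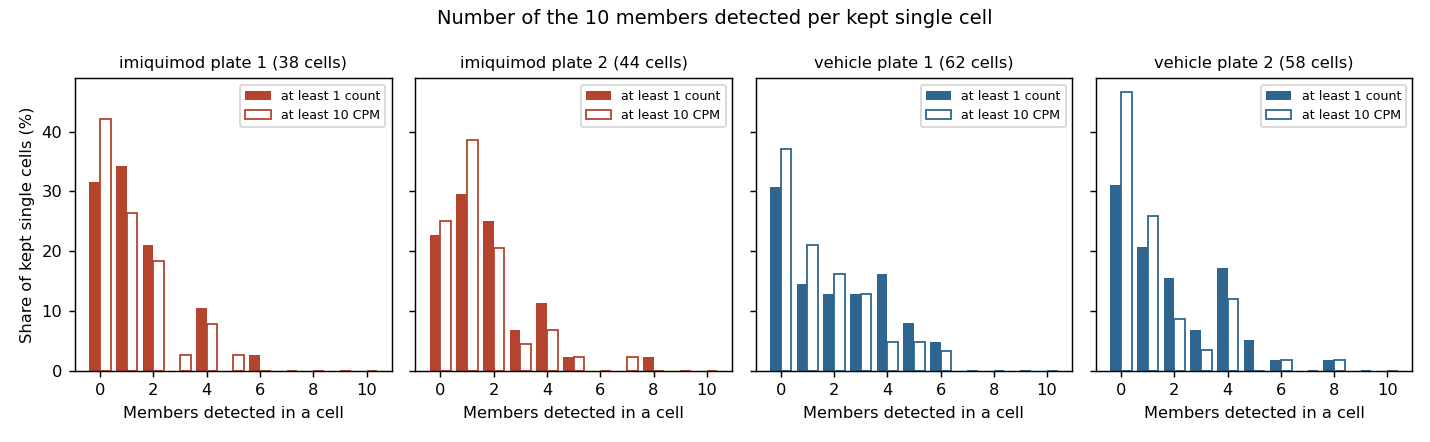
Distribution of the number of the 10 members detected per kept single cell (horizontal axis) as the percent of cells of each plate (vertical axis), imiquimod plates in red and vehicle plates in blue; filled bars count a member at 1 count or more and open bars at 10 CPM or more. Cells with no member make up 31.6% and 22.7% of imiquimod cells and 30.6% and 31.0% of vehicle cells.

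At least 1 of the 4 inducible members Hspa1a, Hspa1b, Dnajb1 and Hsph1 was detected in 10.5% and 11.4% of imiquimod cells and in 16.1% and 17.2% of vehicle cells. At 10 CPM or more these shares were 10.5% and 11.4% of imiquimod cells and 11.3% and 12.1% of vehicle cells. The summed level of the 10 members, without TMM scaling, was 4032 and 4872 CPM on imiquimod plates and 3448 and 2690 CPM on vehicle plates, a log2 ratio of 0.54. The median cell had 330 and 1572 CPM of members on imiquimod plates and 96.7 and 51.5 CPM on vehicle plates. The 24 immediate early genes, known to respond quickly to activation and to handling, summed to 16401 and 18714 CPM on imiquimod plates and 11977 and 8475 CPM on vehicle plates. Within a plate, the summed member level and the summed immediate early level of the same cell had a Spearman correlation between 0.14 and 0.37 over 38 to 62 cells, which share plate and depth.

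The number of members in a cell followed its number of genes. Spearman's rho within a plate was between 0.57 and 0.69, a description over cells that share depth. Cells above their plate's median gene number had a mean of 2.05 and 2.68 members on imiquimod plates and 3.23 and 2.79 on vehicle plates. The other cells had 0.632 and 0.818 on imiquimod plates and 1.03 and 1.03 on vehicle plates. The most members in a kept cell was 8, in 1 imiquimod cell with 7483 genes and 1 vehicle cell with 8033 genes. The imiquimod cell had all but Hspa1a and Hsph1, and the vehicle cell all but Hspa1a and Hspa1b. At the other end, the imiquimod cell with the most Hspa1b counts held no other member, and the vehicle cell with the highest Hsph1 level, 32668 CPM on plate 1, held none either among its 559 genes.

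Members were detected together more often than the product of their shares within plates. Among the 45 pairs, 26 had an expectation of at least 1 cell, and all 26 were seen together more often than that. Over these pairs the cells with both summed to 464, against 280 from the products, a ratio of 1.66. The ratio was 1.55 on imiquimod plates alone and 1.66 on vehicle plates alone. When the products were taken separately in cells above and at or below the median gene number of a plate, the same 26 pairs were all above and summed to 350.9 from the products, a ratio of 1.32. The ratio was thus closer to 1 once gene number was taken into account, and what remained was not tested. With the limit of at least 1 expected cell set on the products within gene number instead, 29 pairs qualified and 28 were above. Dnajb1 with Hsph1 was the exception, with 1 cell against 1.24. Gene number still varied among the cells on either side of the median. Pairs of other genes were not counted, so neither ratio can be read as particular to the members.

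Hspa8 and Hsp90ab1 formed the most frequent pair, with 54 cells. The product within plates gave 35.4, and that within plates and gene number 42.4. Both products are given in that order for the other pairs. Next came Hspa8 with Dnaja1 in 45 cells, against 29.6 and 36.9, and Hspa8 with Hspa5 in 42 cells, against 25.7 and 33.0. Dnajb1 was nearly always accompanied by Hspa8, in 17 of its 19 cells, against 8.84 and 12.3. Its pairing with Hsp90aa1 occurred in 11 cells, against 4.02 and 6.15, ratios of 2.73 and 1.79. All 7 cells with Hspe1 also detected Hsp90ab1. Hsph1 stood closer to the product, with 5 cells shared with Hspa8, against 4.25 and 4.82.

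**Figure D4:**
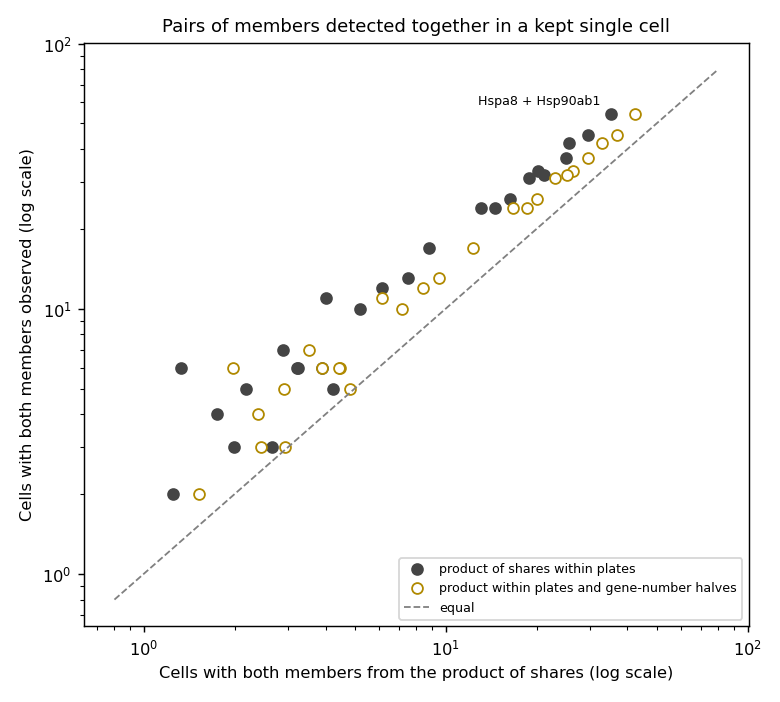
Cells with both members observed (vertical, log scale) against the number from the product of their shares (horizontal, log scale), 1 point per pair with an expectation of at least 1 cell within plates; filled points use products within plates and open points products within plates and within cells above or below the plate's median gene number. All 26 filled points lie above the dashed line of equality, and the open points lie nearer to it.

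In ten-cell wells, which pool 10 sorted cells, Hspa8, Hsp90ab1 and Dnaja1 were detected in 16 of 16 wells, Hspa5 in 14, Hsp90aa1 and Dnajb1 in 10, Hsph1 in 6, Hspe1 in 4, Hspa1a in 2 and Hspa1b in 0. A well held 4 to 9 members, 5.88 on average. In a pooled well, fewer cells with a transcript and less of it per cell cannot be told apart. The summed member level was 1681 and 6093 CPM in the ten-cell wells on imiquimod plates and 4659 and 2628 CPM in those on vehicle plates, so wells of imiquimod plate 1 held the lowest sum and those of imiquimod plate 2 the highest. Immediate early genes summed to 9555 and 21439 CPM there and to 15180 and 8825 CPM in the ten-cell wells on vehicle plates, so imiquimod plate 2 was again highest and vehicle plate 1 next, and vehicle plate 2 was lowest. Fibroblast markers summed to 5769 CPM in the ten-cell wells on vehicle plate 2 and to at most 14.6 CPM in those on the other plates, and macrophage and dendritic markers to 791 CPM on imiquimod plate 2 and at most 67.2 CPM on the others. The part of either in the levels of the members was not tested.

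Set against the kept single cells of the same plates, ten-cell wells showed no called member. Of 8 members tested, 1 had a log2 fold change above 0, against 43.4% of all genes, and the median was -0.68, against -0.24 over all 11452 genes tested. Hsp90ab1 was that member, with 995, 1129, 2028 and 791 TMM-scaled CPM in ten-cell wells on imiquimod plates 1 and 2 and vehicle plates 1 and 2, against 1278, 1085, 870 and 598 CPM in single cells. Its log2 fold change was 0.37 ± 0.52 (SE, n = 4 sums each, edgeR adjusted p = 1.00). Hspa8 had 562, 2237, 1235 and 858 CPM in ten-cell wells in the same order of plates, against 2340, 1872, 1546 and 1116 CPM in single cells, with a log2 fold change of -0.49 ± 0.51 (SE, n = 4 sums each, edgeR adjusted p = 1.00). Both ranges overlapped. Dnaja1 had 63.5 and 364 CPM in ten-cell wells on imiquimod plates and 503 and 214 CPM in those on vehicle plates, against 509, 717, 212 and 224 CPM in single cells of the same plates. Hspa5 had 266 and 567 CPM in ten-cell wells on imiquimod plates and 439 and 325 CPM in those on vehicle plates, against 1065, 891, 574 and 156 CPM in single cells. Both genes were lower in ten-cell wells than in single cells on both imiquimod plates and higher on 1 of the 2 vehicle plates, plate 1 for Dnaja1 and plate 2 for Hspa5. The count of genes called was 0 (0% called), with 242 at an unadjusted p under 0.05, and DESeq2 called 68.

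Single wells differed widely within a plate. Over all 16 wells, Hspa8 had a lowest, median and highest level of 0.238, 952 and 4163 CPM, Hsp90ab1 of 8.74, 1073 and 4061 CPM and Dnaja1 of 4.23, 255 and 739 CPM. Hspa8 ranged between 177 and 856 CPM in the ten-cell wells on imiquimod plate 1 and between 36.6 and 4163 CPM on imiquimod plate 2, against 802 to 2074 CPM on vehicle plate 1 and 0.238 to 1759 CPM on vehicle plate 2. Dnajb1 reached 1023 CPM in 1 well on imiquimod plate 2 and was at 0 in another well of that plate. Hspa1a, which no kept single cell carried, had 241 and 338 counts (64.5 and 106 CPM) in 2 wells on imiquimod plate 2, the same wells that held 9 and 8 members. In these wells Hspa1b had 0 counts. The sequences that the pair shares are those shown above.

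**Figure D5:**
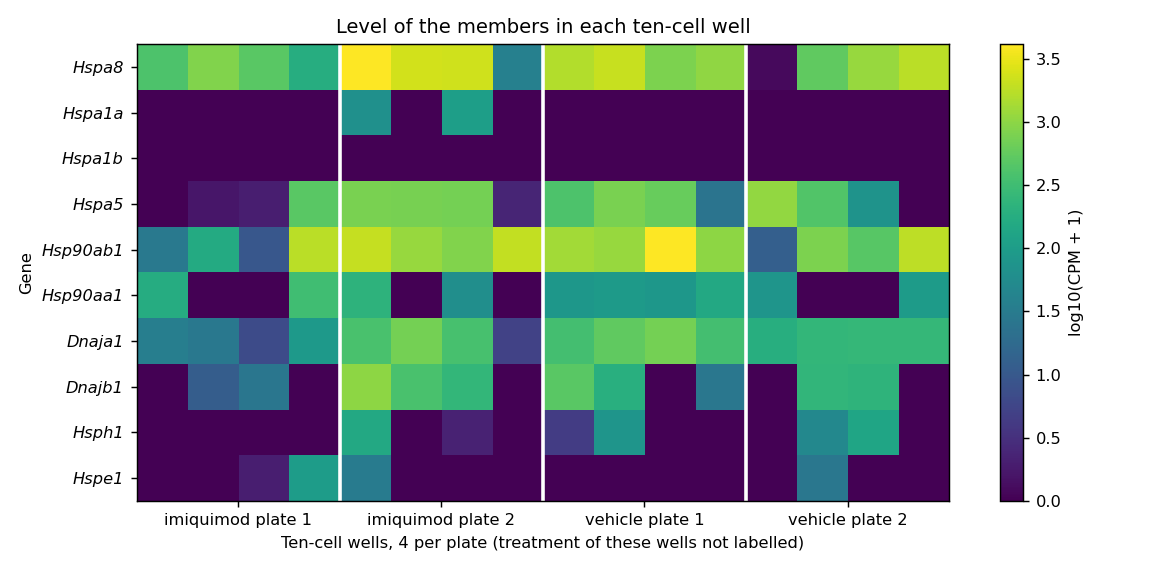
Level of each member in the 16 ten-cell wells as log10(CPM + 1) (colour scale), 4 wells per plate between white lines, for the wells on imiquimod plates 1 and 2 and vehicle plates 1 and 2; the treatment of these wells is not labelled. Hspa8, Hsp90ab1 and Dnaja1 are present in all 16 wells, Hspa1a in 2 wells on imiquimod plate 2 and Hspa1b in none.

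Other chaperone genes were counted from fixed lists. Of 23 tested cytosolic co-chaperones, 18 had a log2 fold change above 0 between imiquimod and vehicle (median 0.98), and 7 were above and 2 below without overlap, against 13.7% and 31.1% of all genes. Fkbp5, a co-chaperone of HSP90 for steroid receptors, had 592 and 1095 CPM on imiquimod plates, against 84.8 and 61.3 CPM on vehicle plates, with a log2 fold change of 3.53 ± 1.09 (SE, n = 2 plates each, edgeR adjusted p = 0.42). Stip1, which hands clients between HSP70 and HSP90, had 176 and 584 CPM on imiquimod plates, against 173 and 167 CPM on vehicle plates. Dnajc7, another J-domain protein, had 136 and 572 CPM on imiquimod plates, against 119 and 126 CPM on vehicle plates.

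The endoplasmic reticulum list had 11 of 18 tested genes above 0 (median 0.55), with 5 above and 2 below without overlap. P4hb, a disulfide isomerase, had 404 and 359 CPM on imiquimod plates, against 230 and 167 CPM on vehicle plates. Pdia3, another, had 1021 and 325 CPM on imiquimod plates, against 560 and 164 CPM on vehicle plates, and calnexin (Canx) had 78.3 and 594 CPM, against 111 and 217 CPM. The groups of Pdia3 and of Canx overlapped.

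The chaperonin and prefoldin list, whose proteins fold actin and tubulin, had 5 of 13 genes above 0 (median -0.59), with 2 above and 4 below without overlap. Cct5 and Cct7, subunits of the cytosolic chaperonin, overlapped between treatments, and the prefoldin subunit Pfdn5 had 555 and 105 CPM on imiquimod plates, against 43.3 and 82.5 CPM on vehicle plates. Of 7 mitochondrial chaperones, 4 were above 0 (median 1.73), with 2 above and 2 below without overlap. Hspa9, the mitochondrial HSP70, was below without overlap, at 36.2 and 79.1 CPM on imiquimod plates against 180 and 166 CPM on vehicle plates, while Lonp1 and Trap1 overlapped. The regulators Hsf1 and Hsf2 overlapped, with Hsf1 at 26.6 and 49.3 CPM on imiquimod plates and 31.4 and 45.7 CPM on vehicle plates, and Hsbp1, a small protein that binds heat shock factor 1, had 75.9 and 48.1 CPM, against 0 and 8.49 CPM. No gene of these lists passed edgeR's test.

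Of 24 immediate early genes, 22 had a log2 fold change above 0 (median 1.38). Dusp1, a phosphatase of MAP kinases, had 5343 and 3563 CPM on imiquimod plates, against 1140 and 695 CPM on vehicle plates (log2 fold change 2.28 ± 0.48, SE, n = 2 plates each, edgeR adjusted p = 0.42). Junb, an AP-1 subunit, had 2900 and 2896 CPM on imiquimod plates, against 1616 and 1188 CPM on vehicle plates. Nfkbia, an inhibitor of NF-kB, overlapped, with 3324 and 2065 CPM on imiquimod plates and 2357 and 973 CPM on vehicle plates.

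The genes whose level per cell was most like the summed members were led by copies of Hspa8. Likeness was the mean over plates of the Spearman correlation within a plate, over the 984 other genes detected in at least 25% of the 202 kept cells, whose median was 0.16 and whose 95th percentile was 0.36. Gm15459 came first at 0.69, Gm8355 at 0.63 and 1700016L04Rik, a gene within which Gm8355 lies in RefSeq, at 0.61. The translation factor gene Eef1a1 followed at 0.44, Gm13456 at 0.43 and the mitochondrial phosphate carrier gene Slc25a3 at 0.42. Gm15459 was detected in 77 kept cells, and 76 of these also detected Hspa8. All 62 cells with Gm8355 did so as well. Copies of Hspa8 held 1.47% and 1.42% of the counts of gene and copies together on imiquimod plates and 1.57% and 1.66% on vehicle plates. Counts at Gm5844, the main copy of Hsp90aa1, were found in 24 cells, all of which had Hsp90aa1.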

How the data were processed

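Per the submitters' processing notes, reads were handled with Trimmomatic 0.39, STAR 2.7.3a and SAMtools 1.12 on mm39; how reads were counted is not given in the sources used here. The authors deposited 1 matrix of read counts per gene symbol, without molecular identifiers, for 384 wells. Per the labels' protocols, cDNA was made with oligo dT primers and amplified for 24 cycles, and libraries for 12, so intervals and floors cover counting error only.

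Counts were summed per plate over kept cells and tested with edgeR 4.0.16 (filterByExpr, TMM, quasi-likelihood F test, adjusted p under 0.05). The procedure was also run on simulated data, with changes larger than that fitted for any member with counts on every plate. That run cannot tell whether changes of the members' size would be called. The common dispersion of the fit between treatments, edgeR's measure of spread between plates, was 2.71. Kept plate sums held 67319087 and 99183184 counts on the imiquimod plates and 90448592 and 99396458 on the vehicle plates. The labels do not tie plates to mice, so p-values measure the spread between plates, which may be technical. CPM is per 1000000 counts of a well or plate. Single cells were read in Python 3.11.15 with scipy 1.17.1. Alternatives used DESeq2 1.42.0, limma 3.58.1 on mean log2(CPM + 1), other cell filters, thinning and leaving out plates. The members and gene lists were chosen with earlier results of these data known. Named genes beyond the members were the 3 of highest mean CPM in each list and the 6 of greatest likeness. Shared sequence was counted in GENCODE M21 (GRCm38) and promoters are from RefSeq (GRCm38.p6), another build than the authors', so symbols alone link them to the counts.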

Additional observations from a re-analysis of the deposited data

Results flagged for a closer look

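In the ten-cell wells, 1 of 4 wells stood far from the others for Hsp90ab1 on 2 plates, at 1747 CPM on imiquimod plate 1, where the next was 163 CPM, and at 4061 CPM on vehicle plate 1, where the next was 1307 CPM. Hspa8, the number of members and the summed member level gave no such well on any plate. With 4 wells per group such a well can arise by chance, and how often was not tested.

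Member counts were present in wells labelled empty. Of 20 empty wells, 5 had any, and 3 had more than 3 counts. A well on imiquimod plate 2 had 18411 member counts out of 169279, of which 13105 were Hspa8 and 5306 Hspe1. Of the wells on vehicle plate 2, 1 had 1681 counts, 1680 of them Hsp90ab1 and 1 Hspa1b. Another had 171 counts, all of Hsp90ab1, and with 885 genes and 1527760 counts in all it was past the limits set for a kept cell. Dnaja1, Dnajb1, Hsph1, Hsp90aa1 and Hspa1a had 0 counts in all 20.

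Of 146 single-cell wells left out by the filter, 23 (15.8%) detected a member.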

How the results depend on the processing

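The mean share of cells per member, imiquimod minus vehicle, was -4.75 percentage points, and -0.859 at 10 CPM or more and -1.66 after thinning. Members per cell differed by -0.475, and by -0.086 and -0.166 in the same settings. The share with an inducible member differed by -5.74 points, and by -0.735 and -0.376 in those settings and -10.1 in cells with at least 1000 genes. Single shares turned in direction for Hspa5 (-4.01, against 3.83 at 10 CPM and 0.201 thinned), Dnajb1 (-3.52, against 0.106 thinned), Hspa8 (-5.27, against 3.47 with 1000 genes) and Hsp90aa1 (0.063, against -3.45 with 1000 genes). Leaving out 1 plate gave -5.89 to 6.01 for Hsp90aa1, -13.2 to 5.14 for Hspa5 and -4.44 to 0.839 for Hspe1.

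The summed member log2 ratio was 0.54, and 0.78 without each gene's highest cell. DESeq2 called 3740 genes and the fit with no filter 9, and leaving out a plate gave 0 to 794 (215 without imiquimod plate 1, 794 without imiquimod plate 2). DESeq2's median over all genes was 0.11, against -0.26. Limma on mean log2(CPM + 1), which weighs every cell alike, had 4 of 9 members above 0, against 28.0% of all genes. Hspa8 was at -0.059, Hsp90ab1 at -0.64, Dnaja1 at -0.37 and Hspe1 at -0.13. Hspe1 was also at -0.11 with no filter and -0.17 over all wells, and -2.15 to 3.45 without 1 plate. Hsph1 was at 0.0061 with DESeq2, 0.43 with 1000 genes and -16.28 to 0.93 without 1 plate, and imiquimod was at 0 without the highest cells (adjusted p = 0.277). Summing members with their pseudogenes, chosen after seeing the data, left 8 of 9 above 0. The counts without Hspa1b, the co-detection ratio over 1 set of pairs and the unscaled list counts were also chosen after seeing the data. Pairs above the product were 92.9% with 1000 genes, against 100%. Causes were not tested.

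With ten-cell wells, DESeq2 called 68 genes and no filter 22, with 2 members above 0. Leaving out a plate gave 0 to 2 members, -0.037 to 0.50 for Hsp90ab1 and -1.82 to 0.41 for Dnajb1. With the plate as a replicate block, 0 of 17059 genes were called and 1 of 9 members was above 0. Deviations of ten-cell and single-cell sums of the same plate correlated at 0.071 and 0.150 on vehicle plates and 0.178 and 0.038 on imiquimod plates. The ten-cell wells of each plate correlated most with the single cells of that plate. Single cells of vehicle plate 1 correlated more with the ten-cell wells of vehicle plate 2, at 0.095. This is a hint and not a design.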
